A study of Mus musculus with 5 samples.

Results

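The spindle checkpoint and kinetochore genes described here are Bub1, Bub1b, Bub3, Mad2l1, Ttk, Cdc20, Ndc80, Nuf2, Cenpf and Cenpa. They were taken by gene name from a table of read counts, which held all 10 among its 54532 genes, and all 10 passed the filter on low counts that kept 17906 genes. The counts come from bulk RNA-seq of 5 mouse small cell lung cancers, of which 3 were labelled LSN and 2 vehicle. LSN is the name the labels give to the treatment, and the series describes it as an inhibitor of the mitotic kinase Aurora A. All 5 samples share the genotype label RPP, which the labels do not expand, and come from genetically engineered mice that develop this neuroendocrine tumour of the lung. The sources used here do not give the dose, the length of treatment, or the age and number of the animals. Each sample is a flash-frozen lung tumour taken at necropsy, although the series text speaks of tumour cells, so that other cells of the lung contribute RNA and fewer dividing cells cannot be told apart from less RNA per dividing cell. The tumours are called LSN tumours 1, 2 and 3 and vehicle tumours 1 and 2, numbers that pair no tumours between groups.

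The kinetochore is the protein assembly that joins a chromosome to the microtubules of the mitotic spindle. It is built on centromeric nucleosomes that carry the histone variant CENP-A, and its outer layer holds the NDC80 complex, which binds microtubules. While a kinetochore is unattached, the kinase MPS1, encoded by Ttk, and the BUB and MAD proteins assemble an inhibitor of CDC20, the activator of the anaphase-promoting complex, and so hold the cell before anaphase. Most of these genes are transcribed mainly in late S, G2 and M phases, and they are abundant in fast-dividing tumours such as small cell lung cancer. Aurora A, the target of the inhibitor, acts at the spindle poles in the same phase of the cell cycle.

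The promoters of these genes are shown first, as background to their levels. Whether shared motifs have a part in how the members varied between tumours was not tested. Promoters of G2 and M phase genes often carry a cell cycle genes homology region (CHR), here searched as TTTGAA, and CCAAT boxes. All 10 members matched the RefSeq promoter table of build GRCm38.p6, which spans 250 bases before and 50 bases after the annotated start, and both strands were searched. TTTGAA was present in 7 of the 10 promoters, those of Bub1b, Bub3, Ttk, Ndc80, Cdc20, Cenpf and Cenpa, and in 18.1% of 27025 promoters of the table. CCAAT was present in 7 of the 10, those of Bub1, Bub1b, Bub3, Ttk, Cdc20, Cenpf and Cenpa, and in 37.9% of all promoters. The promoters below run from 120 bases before to 30 bases after the start, 5′ to 3′ on the strand of the gene, with matches to TTTGAA and to CCAAT on either strand in capitals. Cdc20 and Ttk are shown for the highest values relative to the other tumours in LSN tumour 3, Cenpf and Cenpa as kinetochore and centromere genes with the same motifs, and Bub3 and Nuf2 for patterns of their own.
Cdc20, chr4:118437314-118437463, minus strand: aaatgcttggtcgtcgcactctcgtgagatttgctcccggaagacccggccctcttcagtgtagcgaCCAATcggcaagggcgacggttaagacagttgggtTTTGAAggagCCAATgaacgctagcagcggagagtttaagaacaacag
Ttk, chr9:83834569-83834718, plus strand: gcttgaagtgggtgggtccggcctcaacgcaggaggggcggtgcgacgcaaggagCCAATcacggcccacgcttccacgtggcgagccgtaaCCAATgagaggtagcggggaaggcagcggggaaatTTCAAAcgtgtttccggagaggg
Cenpf, chr1:189688057-189688206, minus strand: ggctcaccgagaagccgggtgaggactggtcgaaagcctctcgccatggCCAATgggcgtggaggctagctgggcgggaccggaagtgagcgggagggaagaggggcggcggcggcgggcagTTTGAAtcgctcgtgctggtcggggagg
Cenpa, chr5:30666766-30666915, plus strand: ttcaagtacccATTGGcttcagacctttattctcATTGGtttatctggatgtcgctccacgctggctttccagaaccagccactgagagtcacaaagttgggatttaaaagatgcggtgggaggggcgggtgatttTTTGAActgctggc
Bub3, chr7:131560250-131560399, plus strand: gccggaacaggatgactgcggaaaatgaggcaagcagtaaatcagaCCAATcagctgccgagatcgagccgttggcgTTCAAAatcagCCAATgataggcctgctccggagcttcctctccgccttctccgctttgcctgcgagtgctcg
Nuf2, chr1:169531435-169531584, minus strand: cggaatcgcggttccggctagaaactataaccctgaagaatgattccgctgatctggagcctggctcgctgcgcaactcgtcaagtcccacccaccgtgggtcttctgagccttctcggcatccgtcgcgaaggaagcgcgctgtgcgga

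In the promoter of Cdc20, TTTGAA began 18 bases before the start, between CCAAT boxes that began 53 and 8 bases before it. In that of Ttk, the reverse complement began at base 8 after the start, and the CCAAT boxes lay 65 and 28 bases before it. The promoter of Nuf2 held neither motif, and neither did that of Mad2l1. Bub3, the member whose levels differed most from the common pattern, had both motifs. TTTGAA was on the other strand 43 bases before the RefSeq start, and CCAAT lay 74 and 32 bases before it. The read count table has Bub3 begin earlier, at 131560222, so the whole stretch shown lies inside the gene as annotated there. The RefSeq start of Cenpa also lies inside its gene in that table, which begins at 30666777. Other motifs searched were TTCGAA (2 of 10 members, 1.57% of promoters), TTTAAA (3 of 10, 13.2%), GGGCGG (7 of 10, 35.9%) and GGCGG, which overlaps it (9 of 10, 49.0%). The E2F letters TTTCCCGC, TTTGGCGC, TTTCGCGC and TTTGCCGC were in 0 of the 10 windows and in 2.32% of promoters. The letters alone do not show that a factor binds there.

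Expression was measured with total counts of 17870505, 19766604 and 19516606 in LSN tumours 1, 2 and 3 and of 17804648 and 17439049 in vehicle tumours 1 and 2. The least abundant member in any tumour, Ttk in LSN tumour 2, still had 866 counts. Neuroendocrine markers, 7 genes that included Chga, Syp and Calca, were all above a count of 0 in every tumour and summed to between 2470 and 3367 CPM in the LSN tumours and to 4469 and 1793 CPM in vehicle tumours 1 and 2. CPM is the read count scaled to the size of the library, with TMM factors. Markers of normal lung epithelium were present too, with summed levels of 350.5 to 1650 CPM in the LSN tumours and of 6082 and 8175 CPM in the vehicle tumours. All 8 of these markers had a log2 fold change below 0, as had all 5 endothelial markers, whose sums lay between 60.3 and 90.1 CPM in the LSN tumours against 165.5 and 328 CPM in the vehicle tumours. Summed levels in LSN tumours 1, 2 and 3 and then in vehicle tumours 1 and 2 were 626, 525.5, 298, 519 and 1085 CPM for fibroblast and smooth muscle markers, and 933, 505, 1168, 693.5 and 2932 CPM for macrophage and monocyte markers. T and NK cell markers summed to between 3.32 and 16.8 CPM with LSN and to 5.22 and 12.8 CPM with vehicle, B and plasma cell markers to between 13.0 and 129.3 CPM with LSN and to 49.3 and 223 CPM with vehicle, and neutrophil markers to between 2.89 and 8.06 CPM with LSN and to 4.89 and 24.0 CPM with vehicle. Ncr1 was at 0 counts in LSN tumours 1 and 2 and Retnlg in LSN tumours 2 and 3. The part of these other cells in the values of the mitotic genes was not tested. Nothing in the labels says that the tumours came from separate animals, so the p-values speak only of the variation among these 5 pieces of tumour.

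LSN was compared with vehicle to ask whether tumours exposed to an inhibitor of a mitotic kinase differ in the RNA of checkpoint and kinetochore genes. None of the 10 genes separated the groups, and the values of 1 tumour stood above the rest. LSN tumour 3 had the highest level of 9 of the 10 genes, all but Bub3, whereas it was the highest tumour for 20.4% of all genes tested. LSN tumour 2 was the lowest of all for 5 genes, and it was the lowest tumour for 25.0% of all genes tested. LSN tumour 1 lay above both vehicle tumours for Nuf2, Cdc20 and Cenpa. By edgeR's quasi-likelihood test with Benjamini-Hochberg adjustment over all genes, 0 of the 10 were called higher and 0 lower, where 0.0% of all genes were called in either direction. At an unadjusted p under 0.05 there were 0 members and 764 of 17906 genes (4.27%) in edgeR, and 0 members and 4.79% of genes in limma-voom. DESeq2 called 0 members at an adjusted p under 0.05 and 100 of 18547 genes (0.539%), and had 0 members and 4.02% of genes at an unadjusted p under 0.05. With 3 tumours in one group and 2 in the other, the smallest p of an exact permutation test is 0.1, one-sided.

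**Figure D1:**
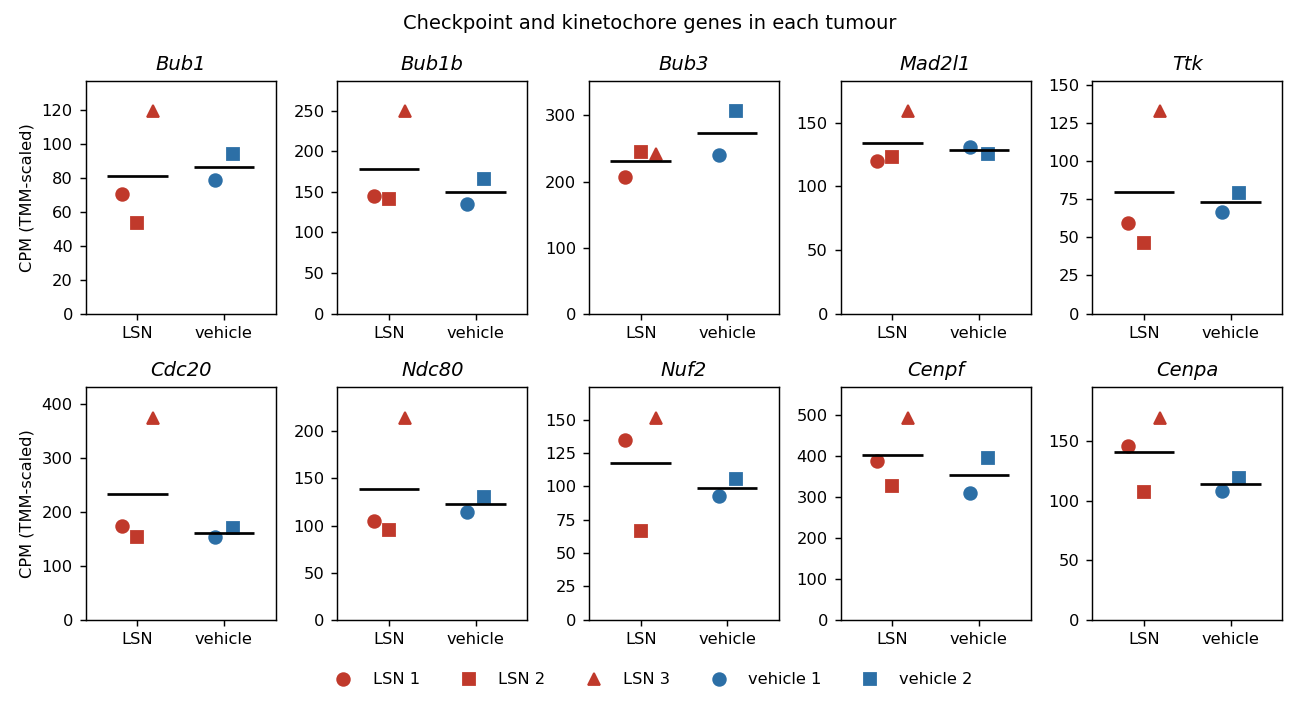
Level of each gene in each tumour, in TMM-scaled CPM on a linear axis from 0, with LSN tumours in red, vehicle tumours in blue and the group mean as a bar (n = 3 LSN, n = 2 vehicle). LSN tumour 3 (triangle) is the highest point in every panel except that of Bub3, where vehicle tumour 2 is highest at 306 CPM.

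Among the checkpoint proteins, Bub1 (ENSMUSG00000027379, chromosome 2, 127801122 to 127831865 in mm10) encodes a kinase that recruits other checkpoint proteins to kinetochores and marks centromeric histone H2A. Its level was 70.1, 53.1 and 118.9 CPM in LSN tumours 1, 2 and 3, against 78.7 and 93.8 CPM in vehicle tumours 1 and 2. LSN tumours 1 and 2 were below both vehicle tumours and LSN tumour 3 above both, so the groups overlapped. The means were 80.7 ± 34.1 CPM with LSN (SD, n = 3) and 86.3 ± 10.6 CPM with vehicle (SD, n = 2), with a log2 fold change of -0.10 ± 0.39 (SE) and an adjusted p of 0.9996 in edgeR.

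Ttk (ENSMUSG00000038379, chromosome 9, 83834689 to 83872389), which encodes the kinase that starts checkpoint signalling, showed the same arrangement with a wider range. It was at 59.4, 46.4 and 132.5 CPM in the LSN tumours and at 66.8 and 79.3 CPM in the vehicle tumours. LSN tumour 3 had 2.86 times the level of LSN tumour 2, the widest ratio between tumours among the 10 genes. The log2 fold change of 0.12 ± 0.50 (SE; edgeR, adjusted p = 0.9996) therefore averaged a high tumour with others below the vehicle level, and without LSN tumour 3 it was -0.47.

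Bub1b (ENSMUSG00000040084, chromosome 2, 118598211 to 118641591) encodes BUBR1, a subunit of the inhibitor of CDC20. It was at 145, 141 and 249 CPM in the LSN tumours and at 135 and 165 CPM in the vehicle tumours. LSN tumours 1 and 2 lay between the vehicle tumours and LSN tumour 3 above them. The group means were 178 ± 61.2 and 150.2 ± 21.4 CPM (SD, n = 3 LSN and n = 2 vehicle), with a log2 fold change of 0.25 ± 0.33 (SE), or -0.07 without LSN tumour 3.

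Mad2l1 (ENSMUSG00000029910, chromosome 6, 66535390 to 66547220), which encodes MAD2, the subunit that captures CDC20, varied least of the 10. Its level was 119.9, 123 and 159 CPM in the LSN tumours and 131 and 125.5 CPM in the vehicle tumours. LSN tumours 1 and 2 were again below both vehicle tumours and LSN tumour 3 above both, but the highest tumour had only 1.32 times the level of the lowest. The log2 fold change was 0.06 ± 0.23 (SE) with TMM scaling, and -0.03 when libraries were scaled by total counts alone.

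Bub3 (ENSMUSG00000066979, chromosome 7, 131560222 to 131571895) encodes the partner that brings BUB1 and BUBR1 to kinetochores and is also known to bind splicing factors. It was at 207, 245 and 241 CPM in the LSN tumours, against 239.9 and 306 CPM in the vehicle tumours. It was the 1 gene of the 10 that was not highest in LSN tumour 3, and its highest value was in vehicle tumour 2. The means were 231 ± 20.6 CPM with LSN (SD, n = 3) and 273 ± 46.9 CPM with vehicle (SD, n = 2), and the log2 fold change of -0.24 ± 0.22 (SE) had an adjusted p of 0.9996 in edgeR. It kept its sign when each tumour was left out in turn, at between -0.40 and -0.05.

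Cdc20 (ENSMUSG00000006398, chromosome 4, 118432901 to 118437352), the activator of the anaphase-promoting complex and the target of the checkpoint, had the largest difference between group means of the 10. It was at 173, 154 and 374 CPM in LSN tumours 1, 2 and 3, against 152 and 170.0 CPM in the vehicle tumours. LSN tumour 3 had 2.17 times the level of the next tumour, whereas LSN tumour 2 lay between the vehicle tumours and LSN tumour 1 just above them. The means of 234 ± 122 CPM with LSN (SD, n = 3) and 161 ± 12.5 CPM with vehicle (SD, n = 2) gave a log2 fold change of 0.54 ± 0.45 (SE; edgeR, unadjusted p = 0.279, adjusted p = 0.9996). Without LSN tumour 3 it was 0.02.

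Of the outer kinetochore genes, Ndc80 (ENSMUSG00000024056, chromosome 17, 71496100 to 71526857) and Nuf2 (ENSMUSG00000026683, chromosome 1, 169497934 to 169531464) encode the paired subunits whose head domains bind microtubules. Ndc80 was at 105, 95.0 and 214.5 CPM in the LSN tumours and at 115 and 129.8 CPM in the vehicle tumours. Nuf2 was at 135, 66.4 and 151.5 CPM in the LSN tumours and at 92.5 and 106 CPM in the vehicle tumours. The partners differed in LSN tumour 1, which was below both vehicle tumours for Ndc80 and above both for Nuf2. Per kilobase of gene length, the ratio of Ndc80 to Nuf2 was 0.761 in LSN tumour 1, 1.40 and 1.38 in LSN tumours 2 and 3, and 1.21 and 1.20 in the vehicle tumours. Their log2 fold changes were 0.18 ± 0.41 (SE) for Ndc80 and 0.25 ± 0.39 (SE) for Nuf2, and -0.29 and 0.02 without LSN tumour 3. The other subunits of the complex are encoded by Spc24 and Spc25, named here after their values were seen. Spc24 was at 65.1, 66.0 and 193 CPM in the LSN tumours and at 105.8 and 80.4 CPM in the vehicle tumours, the same arrangement as Ndc80, whereas Spc25 was at 117, 112 and 139.7 CPM in the LSN tumours and at 133 and 147 CPM in the vehicle tumours.

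Cenpf (ENSMUSG00000026605, chromosome 1, 189640606 to 189688086) encodes a large protein of the fibrous corona that links kinetochores to microtubules and motors. It was at 388, 325 and 493 CPM in the LSN tumours and at 309.8 and 395 CPM in the vehicle tumours, with a log2 fold change of 0.19 ± 0.27 (SE). Cenpa (ENSMUSG00000029177, chromosome 5, 30666777 to 30674830), which encodes the centromeric histone, was at 145.5, 107 and 169.8 CPM in the LSN tumours and at 108 and 119 CPM in the vehicle tumours. LSN tumours 1 and 3 were above both vehicle tumours for Cenpa, and LSN tumour 2 was just below the lower of them. Its log2 fold change was 0.31 ± 0.27 (SE; edgeR, adjusted p = 0.9996), and it was 0.15 without LSN tumour 3, the highest positive value of the 10 in that setting, where Bub1, Ttk, Ndc80 and Bub3 had negative values of larger size.

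Across the 10 genes, 8 had a log2 fold change above 0, beside 53.2% of all genes, and the median was 0.18, beside 0.03 over all genes tested. Without LSN tumour 3 the median of the 10 was -0.08, beside 0.01 for all genes, and without LSN tumour 2 it was 0.39. For Bub1, Mad2l1, Ttk and Ndc80, LSN tumours 1 and 2 were below both vehicle tumours and LSN tumour 3 was above both, an arrangement found in 2.99% of all genes tested. The arrangement was picked with these values in view, so no conclusion is drawn from that share. None of the 10 had every LSN tumour above both vehicle tumours, as 8.48% of all genes had, and none had every LSN tumour below both, as 10.4% had.

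**Figure D2:**
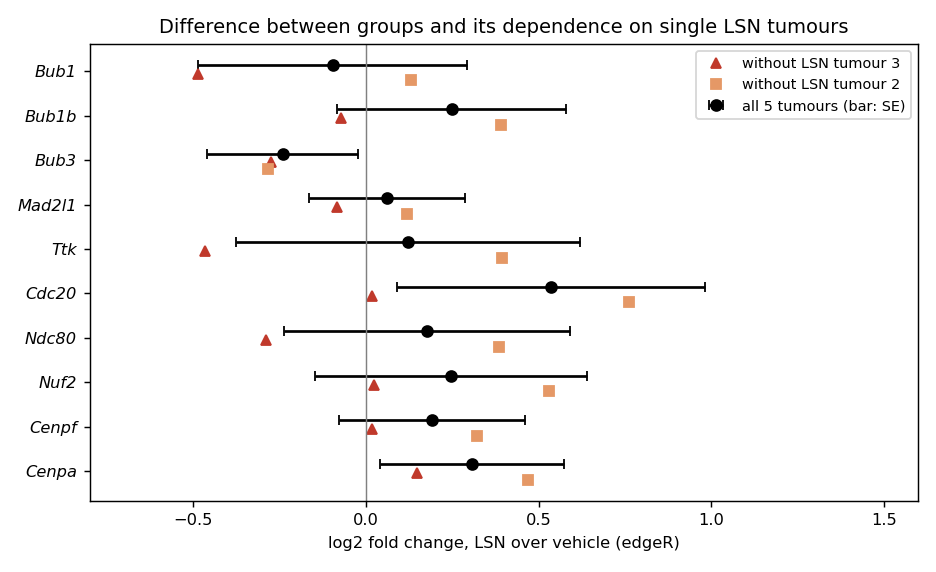
Log2 fold change of LSN over vehicle for each gene from edgeR with all 5 tumours (black, bar: SE), without LSN tumour 3 (red triangles) and without LSN tumour 2 (orange squares). Cdc20 moves to 0.02 and Ttk to -0.47 without LSN tumour 3, and Bub3 stays below 0 in each case.

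The members differed in how closely they followed their common pattern. Likeness was measured as the root mean square distance over the 5 tumours between the log2 CPM profile of a gene, centred on its own mean, and the mean profile of the 10. The closest member was Bub1b, at 0.093 log2 units, followed by Cenpf at 0.117 and Ndc80 at 0.134, and the farthest was Bub3 at 0.329. The median over the 11035 other genes compared was 0.446. Each member is itself part of the mean profile and the other genes are not. The distances of the members are therefore partly small by construction, and no conclusion is drawn from setting them beside that median. The members' mean profile was at 0.54 in LSN tumour 3, at -0.08 and -0.34 in LSN tumours 1 and 2, and at -0.16 and 0.05 in vehicle tumours 1 and 2. Of other protein-coding genes with a mean of at least 10 CPM, the 5 nearest to it were Atrip (0.024), which encodes a partner of the DNA damage kinase ATR, Syncrip (0.028), an RNA-binding protein, Nfyc (0.031), a transcription factor subunit, AU022252 (0.047) and Eps15 (0.055), an endocytic adaptor. Each is nearer to the mean profile than any single member, over 5 tumours only. They were picked as the nearest of the 11035 genes compared, so no conclusion is drawn from setting them beside the members. Atrip and Syncrip lie on chromosome 9, and Nfyc, AU022252 and Eps15 on chromosome 4.

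The median log2 CPM of all genes on chromosome 4 in that tumour, relative to the mean over 5 tumours, was 0.35 (987 genes), and on chromosome 9 it was 0.33 (922 genes), while the median over the 19 autosomes was -0.02. The highest was that of chromosome 12, at 0.60 (605 genes), and chromosome 11 was at 0.26, but neither carries any of the 10 genes. Cdc20 lies on chromosome 4 and Ttk, like Spc24, on chromosome 9, and Cdc20 and Ttk had the highest values of the 10 in LSN tumour 3, at 0.97 and 0.88 above their own means on the log2 scale. Relative to the median of their chromosomes they were at 0.62 and 0.55, inside the range of the other genes that were highest in that tumour, which ran from 0.35 for Mad2l1 to 0.77 for Ndc80. The chromosomes of the remaining members had medians between -0.11 and -0.0015 in LSN tumour 3. After the chromosome median was subtracted in every tumour, 9 of the 10 genes were highest in LSN tumour 3. The share of all genes after the same subtraction was not computed, so no conclusion is drawn from this count. Chromosome copy number was not measured, and its part in these values was not tested.

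**Figure D3:**
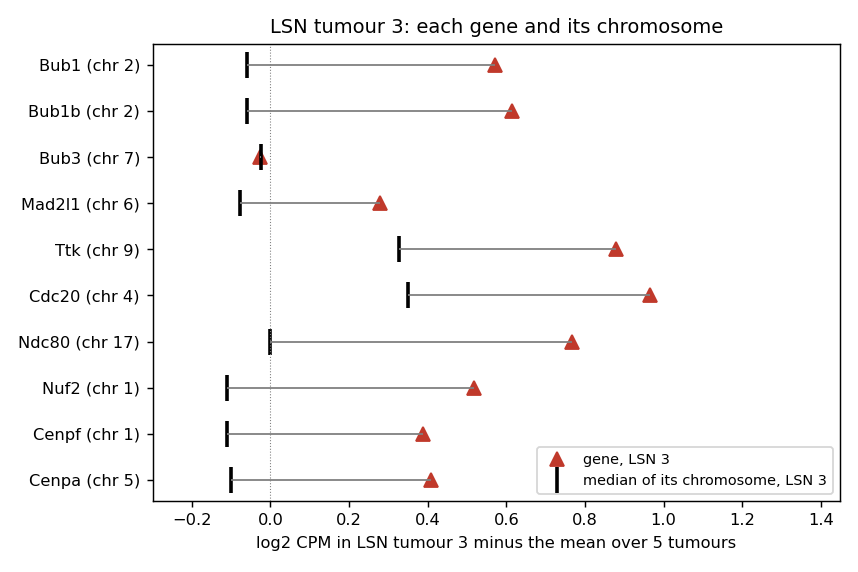
Log2 CPM in LSN tumour 3 minus the mean over all 5 tumours, for each gene (red triangle) and for the median of all genes of at least 1 CPM on its chromosome (black tick). The chromosome medians of Cdc20 (0.35) and Ttk (0.33) lie right of 0, and every gene except Bub3 lies to the right of its chromosome.

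Levels between genes were compared as CPM per kilobase of the gene length in the deposited table, which counts every annotated exon. On this scale Cdc20 was the highest of the 10 in every tumour, at 92.5, 82.4 and 200.3 CPM per kilobase in the LSN tumours and at 81.6 and 91.0 in the vehicle tumours, and its range did not overlap that of any other member. Bub1b followed with a mean of 39.1 CPM per kilobase over the 5 tumours and Bub3 with 35.4, and they changed places between tumours, Bub1b being above Bub3 in 2 of 5. Cenpf had a mean of 24.8, Cenpa of 22.2, Ndc80 of 20.3, Bub1 of 19.0, Nuf2 of 17.4, Mad2l1 of 15.7 and Ttk of 15.6 CPM per kilobase, and the ranges of all neighbours in this order after Cdc20 overlapped. The order depended on the length used. Per kilobase of the longest protein-coding transcript in GENCODE M21, an alternative chosen after seeing the data, Cdc20 had the highest mean, 114 CPM per kilobase, with Cenpa second at 88.7 and Mad2l1 last at 17.4. On that scale the ranges of Cdc20 and Cenpa overlapped, and in LSN tumour 1 Cenpa was above Cdc20, at 99.3 against 96.3 CPM per kilobase.

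The proportions between members within a tumour were not constant. Cdc20 was 10.6 times Mad2l1 per kilobase in LSN tumour 3, and 6.47 and 5.62 times in LSN tumours 1 and 2, against 5.22 and 6.08 times in the vehicle tumours. Bub1b was 1.69 times Bub3 per kilobase in LSN tumour 3, 1.14 and 0.946 times in LSN tumours 1 and 2, and 0.922 and 0.885 times in the vehicle tumours. Whether Bub1b or Bub3 was higher depended on the length, and per kilobase of the longest coding transcript the ratio was 0.961 in LSN tumour 3, 0.65 and 0.537 in LSN tumours 1 and 2, and 0.524 and 0.502 in the vehicle tumours. The ratio of Ttk to Bub1 was 0.987 in LSN tumour 3 and lay between 0.748 and 0.773 in the other tumours. With coding transcript lengths it was 1.33 in LSN tumour 3 and between 1.01 and 1.04 elsewhere. LSN tumour 3 had the highest value of each of the ratios above. In that tumour the chromosome medians were 0.35 for Cdc20 and 0.33 for Ttk, against -0.08 for Mad2l1 and -0.06 for Bub1. The part of the chromosomes in these ratios was not tested. The length used rescales a ratio equally in every tumour, so it cannot change which tumour is highest. The ratio of Ndc80 to Nuf2 was instead highest in LSN tumour 2, at 1.40 against 1.38 in LSN tumour 3.

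The wider pathway was read from gene lists beside the 10 genes, and by edgeR 0 genes of any of these lists passed in either direction over all genes, with 0 at an unadjusted p under 0.05. Other checkpoint and fibrous corona genes had 5 of 9 log2 fold changes above 0 and a median of 0.23. In this list Cenpe, the kinetochore motor that moves chromosomes to the spindle equator, was at 186, 175 and 259.8 CPM in the LSN tumours and at 113 and 150.2 CPM in the vehicle tumours. It was higher in every LSN tumour, with a log2 fold change of 0.65 ± 0.28 (SE; edgeR, adjusted p = 0.9996). Haspin, the histone H3 kinase that recruits the chromosomal passenger complex, was at 40.7, 29.0 and 66.0 CPM in the LSN tumours and at 21.2 and 27.2 CPM in the vehicle tumours. Haspin lies on chromosome 11, whose median over genes was lowest in the vehicle tumours, at -0.18 and -0.17, against 0.20, -0.06 and 0.26 in LSN tumours 1, 2 and 3. Cenpe, which was also higher in every LSN tumour, lies on chromosome 3. The part of the chromosomes in the values of these and the other list genes was not tested.

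Other outer kinetochore genes had 8 of 11 log2 fold changes above 0, with a median of 0.18. Mis12, a scaffold subunit, was at 83.2, 84.9 and 99.0 CPM in the LSN tumours and at 65.5 and 80.1 CPM in the vehicle tumours, and it also lies on chromosome 11. Zwint, which helps to recruit checkpoint proteins, was lowest in LSN tumour 3, at 60.6 CPM. It was at 99.4 and 142 CPM in LSN tumours 1 and 2 and at 63.8 and 82.9 CPM in the vehicle tumours. Zwint lies on chromosome 10, whose median over genes was 0.007, 0.39 and -0.22 in LSN tumours 1, 2 and 3. In vehicle tumours 1 and 2 that median was -0.06 and -0.12. Inner kinetochore genes had a median of 0.06, with 10 of 16 above 0. Cenpx was at 33.5, 31.8 and 50.9 CPM in the LSN tumours and at 23.9 and 23.5 CPM in the vehicle tumours, and Cenph was lower in every LSN tumour, at 16.8, 17.9 and 25.2 CPM, against 40.8 and 26.4 CPM with vehicle. Both encode inner kinetochore subunits, and Cenpx is another gene of chromosome 11.

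Genes that deposit CENP-A, the product of Cenpa, had 1 of 4 log2 fold changes above 0 and a median of -0.14. Mis18a, which primes centromeres for new CENP-A, was at 29.7, 37.8 and 38.9 CPM in the LSN tumours and at 36.2 and 52.9 CPM in the vehicle tumours, and Oip5, its partner, was at 12.3, 19.2 and 21.4 CPM in the LSN tumours and at 15.4 and 26.7 CPM in the vehicle tumours. Chromosomal passenger and cohesion protection genes were above 0 for 6 of 6, beside 53.2% of all genes, with a median of 0.26. Each was highest in LSN tumour 3, beside 20.4% of all genes. So were 7 of 9 other checkpoint and fibrous corona genes, 8 of 11 other outer kinetochore genes and 8 of 16 inner kinetochore genes. The counts were 12 of 21 for the anaphase-promoting complex and its targets, 1 of 4 for CENP-A deposition and 2 of 10 for replication genes. Cdca8, the borealin subunit, was at 107, 103 and 239.9 CPM in the LSN tumours and at 105 and 122 CPM in the vehicle tumours, an arrangement close to that of Cdc20 on the same chromosome, and Sgo2a, which protects centromeric cohesion, was at 47.8, 39.5 and 54.3 CPM in the LSN tumours and at 27.7 and 47.3 CPM in the vehicle tumours. Without LSN tumour 3 the median of the chromosomal passenger and cohesion protection genes was -0.11.

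The anaphase-promoting complex, which Cdc20 activates, and its targets had 10 of 21 log2 fold changes above 0 and a median of -0.01. Anapc11, its catalytic RING subunit, was at 117, 148 and 169 CPM in the LSN tumours and at 112 and 103 CPM in the vehicle tumours, and Anapc15, a subunit needed for release from the checkpoint, was at 17.1, 19.9 and 22.8 CPM in the LSN tumours and at 26.7 and 26.9 CPM in the vehicle tumours. Anapc11 also lies on chromosome 11. Aurka, the target of the inhibitor, was at 87.1, 91.6 and 145.8 CPM in the LSN tumours and at 90.8 and 102.9 CPM in the vehicle tumours, at a distance of 0.106 from the mean profile of the 10 genes.

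Replication genes, transcribed before mitosis, did not stand out in LSN tumour 3 as the 10 mitotic genes did. Their mean was 8.02, 7.88 and 8.002 log2 CPM in LSN tumours 1, 2 and 3, and 7.77 and 7.90 in vehicle tumours 1 and 2, a range within which LSN tumour 3 was second. The mean of the 10 genes was 7.08, 6.83 and 7.70 log2 CPM in the LSN tumours, and 7.01 and 7.22 in the vehicle tumours. The difference between the means, mitotic minus replication, was -0.30 in LSN tumour 3, -0.94 and -1.05 in LSN tumours 1 and 2, and -0.76 and -0.69 in vehicle tumours 1 and 2. By this measure LSN tumours 1 and 2 were the lowest of the 5 and LSN tumour 3 the highest. Tyms, which makes thymidylate, was at 109.6, 126 and 142 CPM in the LSN tumours and at 97.0 and 94.3 CPM in the vehicle tumours, and Mcm5, a subunit of the replicative helicase, was at 285, 354 and 322 CPM in the LSN tumours and at 267 and 238.5 CPM in the vehicle tumours. Tyms and Mcm5 were both higher in every LSN tumour, and they lie on chromosomes 5 and 8. The median log2 fold change of the replication genes was 0.21, with 7 of 10 above 0.

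**Figure D4:**
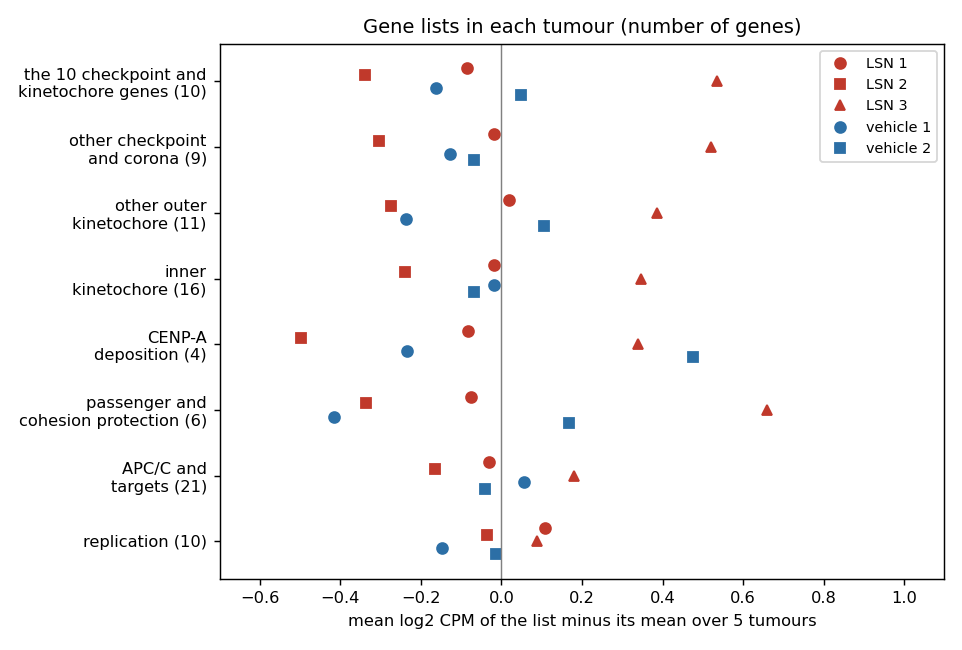
Mean log2 CPM of each gene list in each tumour, minus the mean of that list over the 5 tumours, with LSN tumours in red and vehicle tumours in blue. LSN tumour 3 (triangle) is at 0.54 for the 10 checkpoint and kinetochore genes, and for the replication genes it lies among the other tumours.

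Libraries were not stranded, so reads where genes overlap cannot be assigned to a strand. Fgfr2 and Elovl1 are named for their position alone. Bub3 lies inside the annotated span of Fgfr2 on the other strand, which had 289 to 636 counts in the LSN tumours and 573 and 616 in the vehicle tumours. Cdc20 shares 53 bases at its 3′ end with Elovl1, a gene of the other strand whose counts were 939, 875 and 1048 in the LSN tumours and 1088 and 2395 in the vehicle tumours, and highest in vehicle tumour 2. Annotated pseudogenes of Bub3, Ndc80 and Cdc20 had at most 1 count in any tumour.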

How the data were processed

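Per the labels' protocols, RNA of frozen tumours was sequenced as paired ends from unstranded libraries, mapped by the authors to mm10 with STAR and tested with DESeq2. The sources used here name neither the STAR version nor the counting program nor its annotation. The deposited table holds whole-number read counts per gene, not normalized, for 54532 named genes. These counts were fitted with edgeR 4.0.16 in R 4.3.3 (robust quasi-likelihood, TMM scaling, 3 residual degrees of freedom) after filterByExpr with min.count at 10 and min.total.count at 15, and p-values were adjusted over 17906 genes at 0.05. SE is the log2 fold change divided by the root of F. Log2 CPM used a prior count of 2. A floor of 3 counts equals 0.152 to 0.172 CPM and covers counting error only. Alternatives were DESeq2 1.42.0, limma-voom 3.58.1, other scalings, filters and priors, and each tumour left out. The fit was tested on simulated data that varied less between replicates than these tumours, whose common biological coefficient of variation (relative spread between replicates) was 0.593. That test therefore does not show how many changes would be missed here.

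The members and lists were chosen with earlier results of these data known. The rule named the 10 members, the 2 genes with the smallest p in each other list among those with a mean of at least 1 CPM, Aurka, and the 5 genes of nearest profile. Spc24 and Spc25 were picked with their values in view, and overlapping genes by position. One neuroendocrine marker was left out of its list and is not reported here.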

Additional observations from a re-analysis of the deposited data

How the results depend on the processing

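The count of called members was 0 in edgeR and in every alternative run, and the count over all genes was 0 in all of them except DESeq2, which called 100. No paired analysis was possible because the tumours carry no shared replicate numbers. The median log2 fold change of the 10 genes lay between -0.078 and 0.39 when each tumour was left out, and between 0.097 and 0.20 in the other settings. These lie less than 0.34 (the spread between tumours of a group) from its value of 0.18. That spread is itself widened by LSN tumour 3, so it is a weak check, and the median turned below 0 without that tumour. When each tumour was left out in turn, 5 genes took both signs, Bub1 at -0.49 to 0.13, Bub1b at -0.072 to 0.40, Mad2l1 at -0.083 to 0.13, Ttk at -0.47 to 0.39 and Ndc80 at -0.29 to 0.39. The turn came without LSN tumour 3 for the last 4 of these and without LSN tumour 2 or vehicle tumour 2 (0.037) for Bub1. Ttk was at -0.023 with limma-voom. Mad2l1 was at -0.028 with total counts, a setting without TMM factors that lowered the median of all genes by 0.087 on the log2 scale. The cause of the turns in sign with limma-voom or without single tumours was not tested. A fit without a vehicle tumour leaves 1, assumed to vary like the LSN tumours. With the longest coding transcripts, 6 levels per kilobase moved by more than the spread between tumours.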
